A study of Mus musculus with 3 samples.

Results

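The troponin genes of the mouse were examined as 5 chromosomal loci in maps of NKX2-5, a homeodomain transcription factor of the early heart. A peak, an interval where chromatin immunoprecipitation followed by sequencing (ChIP-seq) found more NKX2-5-bound DNA than background, belonged to a locus when its midpoint lay within 50 kb of a gene body in the GENCODE M1 annotation of the mm9 genome. The 8 genes were Tnni1, Tnni2 and Tnni3 for troponin I, Tnnt1, Tnnt2 and Tnnt3 for troponin T, and Tnnc1 and Tnnc2 for troponin C. By this rule 13 of 4418 peaks of the library named S1 and 19 of 5441 peaks of the library named S4 were members. The genes were 8 of 22238 protein-coding gene names in that annotation.

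Both libraries were prepared with the same NKX2-5 antibody from fixed hearts of Parkes mouse embryos at E11.5, and the labels name no genotype or treatment. An Input library of the same tissue was not analysed here. There was therefore 1 condition with 2 libraries, no comparison between groups could be tested, and the study calls S1 and S4 separate experiments without saying whether they came from separate pools of hearts. The lists carry positions and scores only. Sequencing depth is therefore unknown, the tissue could not be checked against marker genes, and whole hearts do not show in which cells NKX2-5 was bound.

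Troponin is the calcium switch of the thin filament of striated muscle. Troponin C binds calcium, troponin I inhibits the interaction of actin and myosin, and troponin T anchors the complex to tropomyosin. The I and T genes lie in tandem pairs with the I gene upstream: Tnni1, of slow skeletal muscle and embryonic heart, precedes cardiac Tnnt2; cardiac Tnni3 precedes slow skeletal Tnnt1; and fast skeletal Tnni2 precedes fast skeletal Tnnt3. Tnnc1 serves cardiac and slow skeletal muscle and Tnnc2 serves fast skeletal muscle, and these genes lie apart from the pairs.

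Each peak has a score from the peak caller, its p-value on a negative log10 scale multiplied by 10, which is not scaled between libraries. A region was called shared where peaks of both libraries overlapped by at least 1 bp. The sequence of 1 shared region is shown for each locus that had any, chosen as the region whose poorer rank in the S1 and S4 lists was best. Each is the plus strand of mm9 (NCBIM37), at most 300 bases around the middle of the stretch covered by both peaks. Capitals mark exact matches, on either strand, to any motif searched. These were AAGTG and TNAAGTG for NKX2-5, TGACA for MEIS1, AGATAA for GATA factors, GGTGTGA for T-box factors, CATTCC (M-CAT) for TEAD factors, and the MEF2 motif. AAGTGACA and GTGNTGACA were searched for a hybrid site of NKX2-5 and MEIS1. The study describes its hybrid motif as an overlapping site, at which binding by the factors was mutually exclusive. AAGTG is part of TNAAGTG and AAGTGACA, and TGACA is part of AAGTGACA and GTGNTGACA.

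The Tnnt2 region was the highest-scoring S1 and S4 interval of its locus, and the window chr1:137732602-137732901 ends just before the RefSeq start of Tnnt2. It holds 1 AGATAA match, on the minus strand, and 1 CATTCC match.
Tnnt2 region: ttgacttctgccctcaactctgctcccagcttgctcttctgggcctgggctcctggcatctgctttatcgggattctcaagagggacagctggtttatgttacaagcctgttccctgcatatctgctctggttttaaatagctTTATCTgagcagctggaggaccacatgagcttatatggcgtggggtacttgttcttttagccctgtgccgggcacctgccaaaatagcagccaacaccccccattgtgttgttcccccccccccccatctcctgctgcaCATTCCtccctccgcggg
The Tnnt1 region, chr7:4467987-4468185, is the whole stretch covered by both peaks. It holds the only GTGNTGACA match of the troponin regions.
Tnnt1 region: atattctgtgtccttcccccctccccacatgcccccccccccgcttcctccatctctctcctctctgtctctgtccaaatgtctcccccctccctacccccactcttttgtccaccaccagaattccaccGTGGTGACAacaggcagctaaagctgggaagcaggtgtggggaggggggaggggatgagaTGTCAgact
The Tnni2-Tnnt3 region lies upstream of Lsp1, a gene between Tnni2 and Tnnt3, and the window is chr7:149645251-149645550. It holds 4 AAGTG, 3 TGACA and 2 CATTCC matches within 300 bases.
Tnni2-Tnnt3 region: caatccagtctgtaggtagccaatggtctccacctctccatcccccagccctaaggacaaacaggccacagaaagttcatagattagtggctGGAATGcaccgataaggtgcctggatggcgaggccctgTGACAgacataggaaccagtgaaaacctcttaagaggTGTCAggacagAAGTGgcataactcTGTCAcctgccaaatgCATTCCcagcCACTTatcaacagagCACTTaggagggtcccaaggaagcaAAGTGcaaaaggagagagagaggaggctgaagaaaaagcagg
The Tnnc1 region lies over the start of the gene, and the window chr14:32021724-32022023 falls in its first intron. It holds 2 TGACA matches, both on the minus strand.
Tnnc1 region: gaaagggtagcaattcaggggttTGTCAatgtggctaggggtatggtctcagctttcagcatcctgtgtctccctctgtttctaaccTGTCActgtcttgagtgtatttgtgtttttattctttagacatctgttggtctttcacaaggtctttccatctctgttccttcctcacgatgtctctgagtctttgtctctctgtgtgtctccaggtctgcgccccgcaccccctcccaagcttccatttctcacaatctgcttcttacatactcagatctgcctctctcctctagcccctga

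Promoter sequences of 3 genes were added to show a start under a peak of both libraries, of 1 and of none: both libraries had a peak over the start of Tnnc1, S4 alone had one over the start of Tnni3, and neither had any near Tnnc2. They are from RefSeq in the build GRCm38.p6, run from 250 bases before to 50 bases after the start, and are written in the direction of the gene. Those of Tnnc1 (plus strand) and Tnnc2 and Tnni3 (minus strand) are at chr14:31208062-31208361, chr2:164779685-164779984 and chr7:4522479-4522778.
Tnnc1 promoter: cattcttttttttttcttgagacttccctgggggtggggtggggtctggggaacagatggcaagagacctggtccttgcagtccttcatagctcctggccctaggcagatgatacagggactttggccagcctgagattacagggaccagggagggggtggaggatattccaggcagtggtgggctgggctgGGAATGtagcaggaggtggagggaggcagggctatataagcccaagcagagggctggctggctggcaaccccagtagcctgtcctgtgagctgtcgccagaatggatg
Tnnc2 promoter: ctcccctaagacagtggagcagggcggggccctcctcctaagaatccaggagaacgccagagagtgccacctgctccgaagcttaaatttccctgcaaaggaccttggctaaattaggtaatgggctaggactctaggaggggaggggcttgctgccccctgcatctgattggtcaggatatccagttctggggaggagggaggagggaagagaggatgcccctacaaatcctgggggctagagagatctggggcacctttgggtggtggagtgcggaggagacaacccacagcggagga
Tnni3 promoter: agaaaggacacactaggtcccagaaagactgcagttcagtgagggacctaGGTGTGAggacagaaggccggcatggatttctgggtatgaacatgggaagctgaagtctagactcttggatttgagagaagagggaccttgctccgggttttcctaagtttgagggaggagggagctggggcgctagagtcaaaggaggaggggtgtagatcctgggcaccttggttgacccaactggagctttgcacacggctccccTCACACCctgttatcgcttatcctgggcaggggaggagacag
The Tnnc1 promoter holds a CATTCC match 58 bases before the start, the Tnni3 promoter holds a GGTGTGA match 200 bases before the start and another 8 bases after it, and the Tnnc2 promoter holds none of the motifs. Of all 32851 RefSeq promoters of this length, 14.7% hold CATTCC and 3.98% hold GGTGTGA.

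NKX2-5 peaks were found around 7 of the 8 troponin genes in S1, in S4 and in both, and Tnnc2 was the gene without any. The share of 87.5% stood beside 26.3% of all protein-coding genes for S1, 32.1% for S4 and 19.2% for both. The windows of a pair overlap, so the 7 genes amount to 4 of 5 loci. A shared region lay within 50 kb of the same 7 genes, against 15.7% of all genes. At least 3 shared regions lay near 4 of them, Tnni1, Tnnt2, Tnni2 and Tnnt3, against 0.926% of all genes. Both genes of a pair counted the same regions here, so these are the loci Tnni1-Tnnt2 and Tnni2-Tnnt3. For Tnnt3 the farthest region counted lay 49.968 kb before its start, just inside the limit.

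The 5 windows summed to 707.76 kb. They held 1.84 peaks per 100 kb in S1 and 2.68 in S4, while the whole genome held 0.167 and 0.206, so the density was 11.0-fold and 13.0-fold higher. The windows surround genes by rule while the genome includes stretches far from any gene, so the background is unlike. A density over windows around all genes is not given here. The mean number was 16 ± 4.24 peaks (SD, n = 2 libraries). S4 held 1.46 times as many troponin peaks as S1 and 1.23 times as many peaks in all.

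The loci differed in which library held more peaks. At Tnni1-Tnnt2 there were 5 peaks in S1 and 8 in S4. At Tnni3-Tnnt1 there was 1 in S1 and 4 in S4, at Tnnc1 2 and 4, and at Tnnc2 0 and 0. Tnni2-Tnnt3 was the only locus with more peaks in S1, which had 5 against 3 in S4.

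**Figure D1:**
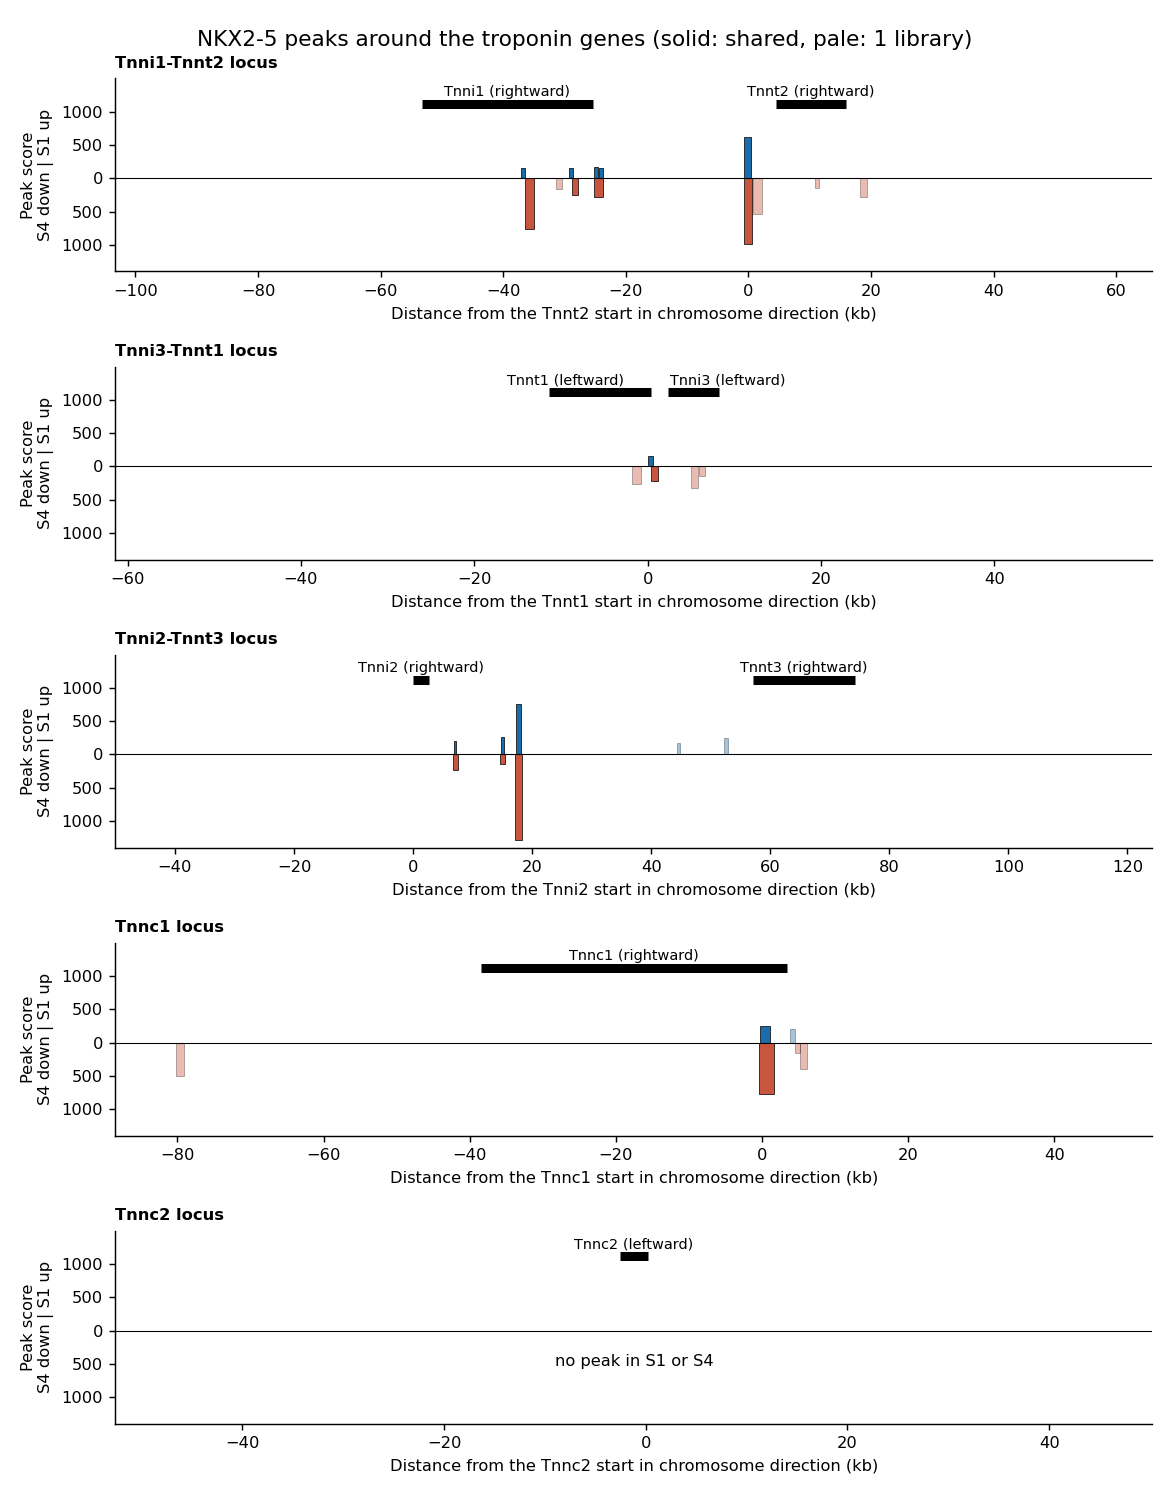
Peaks in the window of each troponin locus, with the distance from the named start in chromosome direction (kb) on the x axis and the peak score on the y axis, S1 upward and S4 downward. Each bar is 1 peak drawn to its width, solid where it overlapped a peak of the other library and pale where it did not, and black bars are the GENCODE M1 gene bodies with their direction. The tallest bars stand at the Tnnt2 start and between Tnni2 and Tnnt3, and the Tnnc2 window is empty.

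At Tnni1-Tnnt2, on chromosome 1, all 5 S1 peaks and 4 of the 8 S4 peaks fell into 4 shared regions, 3 in or just past Tnni1 and 1 at Tnnt2. The highest-scoring was chr1:137732199-137733304, the stretch of 1106 bp covered by both peaks. Its S1 peak scored 622, rank 382 of the list, and its S4 peak scored 992, rank 215. Both stand high in their lists, at percentiles 91.4 and 96.1. The percentile is the share of the list with an equal or lower score. The midpoint lay 0.16 kb before the RefSeq start of Tnnt2 at position 137732911, and both peaks covered that base. In GENCODE M1 the Tnnt2 gene body begins only at 137737452, so by that annotation the same region is intergenic and 4.7 kb upstream.

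Near the start of Tnni1 both libraries had a peak, and their scores differed the most of the 9 shared troponin regions. The S1 peak, chr1:137695842-137696525, covered both RefSeq starts of Tnni1 and scored 161, rank 3428. The S4 peak, chr1:137696490-137697929, scored 758, rank 359, and began past both starts. Their overlap was 36 bp, and with an overlap of at least 100 bp required this region was lost and 8 of 9 troponin regions remained. Of all 2546 shared regions, 0.471% overlapped by less than 100 bp.

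The other shared regions of Tnni1 had low scores in S1. In its intron, chr1:137704106-137704320 scored 152 in S1 and 256 in S4. Between Tnni1 and Lad1, the ladinin gene, chr1:137707775-137709133 joined 1 S4 peak of score 281 to 2 S1 peaks, of scores 174 and 154. Regions that joined more than 1 peak of a library made up 2.16% of all shared regions.

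S4 held 4 further peaks at this locus without a partner in S1, of scores 147 to 537. The highest of them, chr1:137733642-137735200, began 337 bp past the nearest S1 peak, just downstream of the second RefSeq start of Tnnt2 at 137733566. One of score 163 lay in Tnni1, one of score 147 lay in a Tnnt2 intron, and one of score 286 lay downstream of Tnnt2. S1 had no peak inside the GENCODE body of Tnnt2, whose only coverage was 5.45% of its bases in S4.

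At Tnni3-Tnnt1, on chromosome 7, the genes lie close together and run toward lower coordinates, and S1 held a single peak. It formed the only shared region, chr7:4467987-4468185, which lay 0.51 kb before the RefSeq start of Tnnt1 and 6.04 kb after that of Tnni3. The S1 peak scored 157, rank 3626, and the S4 peak scored 220, rank 2792. Both are below the middle of their lists, at percentiles 17.9 and 48.7.

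The remaining S4 peaks of this locus had no overlap in S1. The highest-scoring, chr7:4472551-4473436, lay in Tnni3 and scored 323, rank 1489. A peak of score 147, chr7:4473550-4474215, covered the RefSeq start of Tnni3, and one of score 266 lay in Tnnt1. S4 peaks covered 26.2% of the Tnni3 body and S1 peaks covered none of it, with the nearest S1 midpoint 2.02 kb away. The start of cardiac Tnni3 was thus under a peak of 1 library only, at rank 5031 of 5441.

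At Tnni2-Tnnt3, also on chromosome 7, no peak of either library touched a troponin gene body. The highest-scoring shared region of the 5 loci was here, chr7:149644936-149645864, with a score of 751 in S1, rank 260, and 1279 in S4, rank 126. It lay 17.7 kb after the Tnni2 start, 39.3 kb before the Tnnt3 start and 1.31 kb before the nearest start of Lsp1, which encodes a leukocyte actin-binding protein. The nearest start was therefore not a troponin start. In these lists the membership of this region rests on distance alone, and its S1 midpoint lay 15.1 kb from the Tnni2 body. The study also describes reporter assays of an NKX2-5-bound fragment upstream of Lsp1, which it assigns to Tnni2 and Tnnt3. The reporter was more active in cardiac cells with NKX2-5 knocked down, but not once the NKX2-5 site was mutated. It also reports both troponin genes upregulated in hearts with reduced NKX2-5, and Lsp1 unchanged in such hearts at a later stage. The study places Tnni2 farther from its region than Tnnt3, the reverse of the distances here.

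The other shared regions lay between this one and Tnni2. At chr7:149634552-149634994, 7.06 kb after the Tnni2 start, the scores were 200 in S1 and 239 in S4. At chr7:149642559-149643062 they were 265 in S1 and 149 in S4, the single troponin region that scored lower in S4. S1 alone had a pair of peaks with exonic midpoints inside Lsp1, at scores 165 and 253. The midpoint of the latter also lay inside the gene Gm14492, 4.46 kb before the Tnnt3 start. The nearest S4 midpoint to the Tnnt3 body was 39.3 kb away.

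At Tnnc1, on chromosome 14, a peak of both libraries covered the start of the gene. The shared stretch chr14:32021186-32022560 was 1375 bp long with its midpoint 0.375 kb after the start. The S1 peak scored 243, rank 1768 and percentile 60.0, and the S4 peak scored 778, rank 339 and percentile 93.8. The stretch also lies within Nisch, the gene that overlaps Tnnc1 on the opposite strand.

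Past the end of Tnnc1, inside Nisch, the libraries had peaks side by side without an overlap. The S1 peak there, chr14:32025359-32025953, scored 197, and S4 peaks of scores 164 and 398 followed, the nearer of them 75 bp away. The last S4 peak of the window, chr14:31941336-31942412, scored 498 and lay at the start of 2010107H07Rik, 79.6 kb before the Tnnc1 start. It counted only because GENCODE M1 holds a second, longer Tnnc1 model that begins at 31983021. With the shorter model alone the mean number of troponin peaks was 15.5.

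The limit of 50 kb left out few peaks. The farthest member was the S4 peak at 2010107H07Rik, 41.1 kb from the longer Tnnc1 body. Just outside lay a shared peak at the start of Csrp1, 53.7 kb from Tnni1, which scored 157 in S1 and 268 in S4. Another shared peak, 58.8 kb past Tnnt3, scored 509 in S1 and 575 in S4.

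At Tnnc2, on chromosome 2, the window of 102.807 kb held no peak of either library. The nearest midpoint lay 131.8 kb from the gene body in S1, at a score of 232, and 96.5 kb in S4, at a score of 281. The lists hold only peaks above the score limit of the authors' caller, so weaker signal at Tnnc2 was not detectable here. The lowest scores listed were 140.01 in S1 and 140.02 in S4. Troponin peaks such as that of score 147 over the Tnni3 start in S4 lay close to this floor. Of the troponin C genes, then, the cardiac and slow Tnnc1 had 2 peaks in S1 and 4 in S4, and the fast skeletal Tnnc2 had none, which is a description of 2 libraries.

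Counted over starts, Tnnc1 and Tnnt2 were the genes with a start under a peak of both libraries. S1 had 3 such genes, with Tnni1, and S4 had 3, with Tnni3. By every transcript start of GENCODE M1 in place of the RefSeq starts, the counts were 3 in S1, 4 in S4 and 3 in both, against 2.96%, 4.48% and 1.34% of all genes. The genes in both were then Tnnc1, Tnni1 and Tnnt1, so the choice of annotation decides whether Tnnt2 is among them.

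Midpoints within 1 kb of a GENCODE start made up 3 of 13 troponin peaks in S1 (23.1%) and 8 of 19 in S4 (42.1%). Over all peaks the shares were 21.3% and 22.7%. In S1, 2 peaks were exonic, 2 intronic and 6 intergenic, and in S4 none were exonic, 4 intronic and 7 intergenic. The Tnnt2 start peaks are among the intergenic ones by this annotation.

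Of the S1 troponin peaks, 10 of 13 overlapped an S4 peak, or 76.9% (46.2 to 95.0%, a 95% Clopper-Pearson interval that covers counting error alone), and of all S1 peaks 58.9% did. Of the S4 troponin peaks, 9 of 19 overlapped an S1 peak, or 47.4% (24.4 to 71.1), and of all S4 peaks 47.0% did. The intervals hold the shares of the whole lists. With midpoints required to lie within 150 bp, the shares were 30.8% in S1 and 21.1% in S4, against 45.2% and 36.7% of all peaks.

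The highest-scoring troponin peaks of each library were shared, while the median scores of shared and unshared peaks were close. In S4 the shared troponin peaks reached 1279 and the unshared 537, with medians of 281 and 276, and over the whole list the medians were 315 and 183. In S1 the 10 shared troponin peaks reached 751 and the 3 unshared 253, with medians of 187 and 197, and over the whole list the medians were 279 and 171. Every troponin peak in the top 10% of its list was shared, 2 in S1 and 4 in S4. Of these, the S4 peak at Tnni1 overlapped its S1 partner by 36 bp only. It was not shared where an overlap of at least 100 bp was required. Among the unshared, 4 of 10 in S4 and 1 of 3 in S1 lay within 1 kb of a peak of the other library, measured edge to edge.

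The troponin peaks spread over most percentiles of each list but stayed well under its highest score of 3100. In S1 their scores ran from 152 to 751 with a median of 197, below the list median of 212, and 5 of 13 were above it. In S4 they ran from 147 to 1279 with a median of 281, above the list median of 223, and 13 of 19 were above it. The median percentile was 44.7 in S1 and 65.7 in S4, and troponin peaks were wider in S4, at a median of 1009 bp against 610 bp, as were all peaks, at 783 bp against 625 bp.

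**Figure D2:**
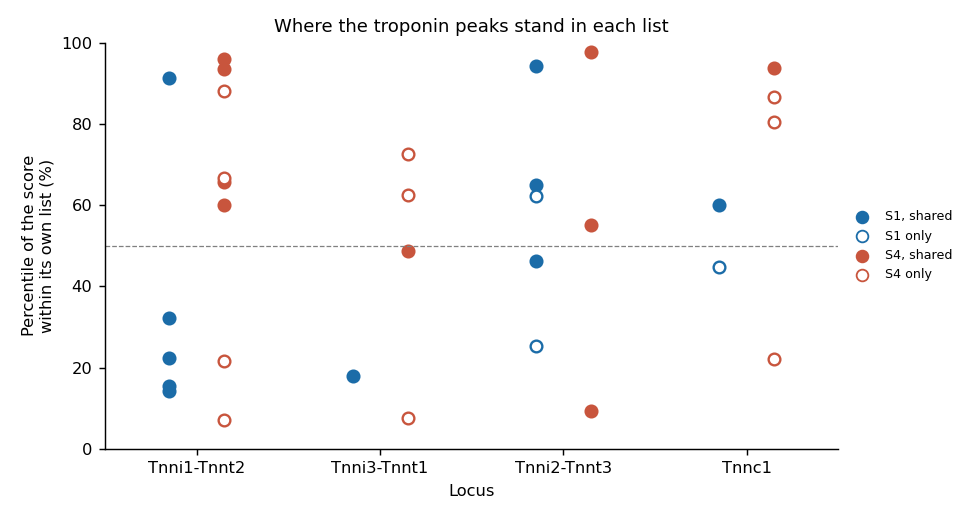
Percentile of each troponin peak's score within its own list (y axis, %) at the 4 loci with peaks (x axis), where S1 is blue, S4 is red, filled points overlapped a peak of the other library and open points did not. The dashed line is the middle of a list, and 5 of 13 S1 points and 13 of 19 S4 points lie above it.

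In 8 of the 9 shared regions the S4 score was the higher, against 60.6% of all shared regions. On the log2 scale the S4 score divided by the S1 score had a median of 0.69 over the troponin regions and 0.16 over all. The largest ratios were near the start of Tnni1 (2.23, percentile 99.6 among all shared regions) and at Tnnc1 (1.68, percentile 98.4). That of Tnni1 sets side by side peaks that overlapped by 36 bp only. The lowest was −0.83 at the region 15.1 kb after the Tnni2 start. Since the score rises with depth, a ratio between the libraries cannot be told apart from a difference in depth, which the lists do not give.

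**Figure D3:**
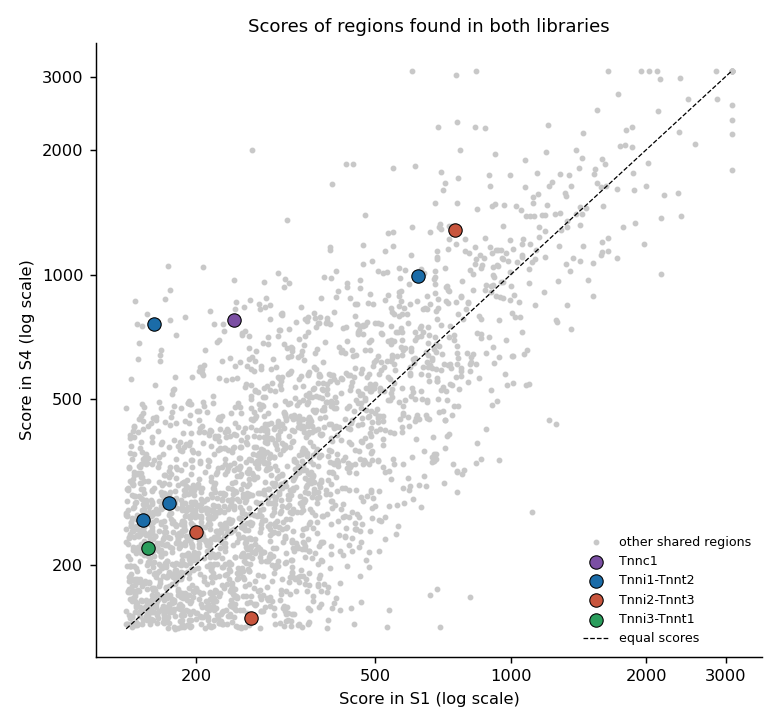
Scores of the 2546 regions found in both libraries, S1 on the x axis and S4 on the y axis, both on log scales, with the 9 troponin regions coloured by locus and the others grey. The points of Tnni1 (at 161 and 758) and Tnnc1 (at 243 and 778) lie far above the dashed line of equal scores, and 1 Tnni2-Tnnt3 point (265 and 149) lies below it.

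The NKX2-5 core AAGTG occurred in 6 of 9 stretches covered by both peaks (66.7%, against 90.1% of all shared regions), and TNAAGTG in 3 (33.3%, against 55.1%). The MEIS1 core TGACA occurred in 7 (77.8%, against 87.2%). These stretches were shorter in the troponin regions, with a median overlap of 504 bp against 629 bp, and the part of length in these shares was not tested.

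The joint words were rarer. AAGTGACA occurred in none of the 9, with an upper limit of 33.6% by the Clopper-Pearson interval, and in 5.42% of all shared regions. GTGNTGACA occurred in 1 (11.1%, against 15.5%), at position 4468117 in the Tnnt1 region printed above. AGATAA and CATTCC each occurred in 4 (44.4%), against 39.4% and 37.8%. GGTGTGA occurred in 1, against 11.9%, and the MEF2 motif in none, against 2.83%. With 9 regions the intervals are wide, 29.9 to 92.5% for AAGTG and 13.7 to 78.8% for CATTCC, and for each of the 9 motifs the share over all shared regions lay inside its interval.

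Single regions differed in what they held. Numbers of matches per region over all shared regions are not given here, so these counts have no background. The Tnni2-Tnnt3 region upstream of Lsp1 held 6 AAGTG matches in 929 bp, 1 of them within TNAAGTG and outside the printed window. The region between Tnni1 and Lad1 held 4 AAGTG and 5 TGACA matches in 1359 bp, and the Tnnc1 region 2 AAGTG and 4 TGACA matches. The stretch of 36 bp at the Tnni1 start held none, and the Tnnt1 region held no AAGTG. Over whole peaks, AAGTG occurred in 11 of 13 in S1 (84.6%, against 88.7%) and in 19 of 19 in S4, against 91.9%.

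**Figure D4:**
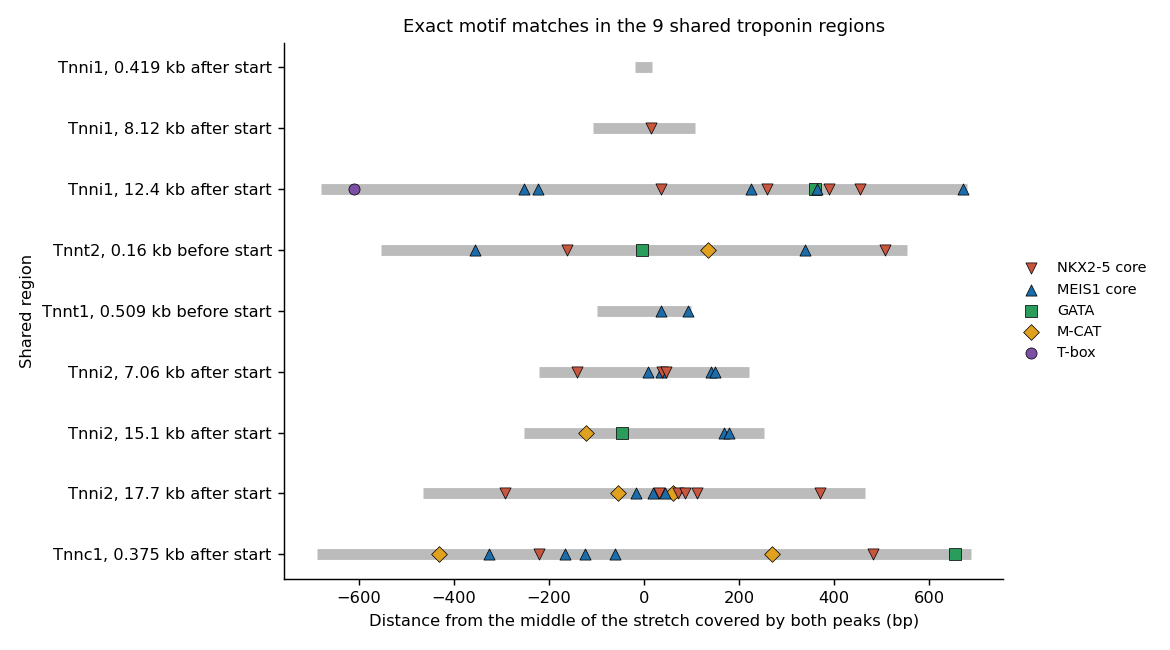
Exact motif matches in the 9 shared troponin regions, with the distance from the middle of the stretch covered by both peaks (bp) on the x axis and 1 region per row, named by the nearest troponin start. Grey bars are the stretches and the legend names each motif by the factor or family given for it in the text. Matches crowd to the right of the middle of the region 17.7 kb after the Tnni2 start, and the stretch of 36 bp at Tnni1 has none.

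CATTCC stood 27 bases before the RefSeq start of Tnnt2 and 58 bases before that of Tnnc1, both inside shared regions, and these were the 2 of 8 promoter entries that held it, against 14.7% of all promoters. AAGTG was found in the promoter of Tnni1 alone (46.4% of all promoters) and TGACA in that of Tnnt1 alone (45.4%). AGATAA was found in that of Tnnt2 (11.2%). Promoter entries for Tnni2 and Tnnt3 were not used here.

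The base composition of the shared troponin regions ran from 43.1% G and C at the region 7.06 kb after the Tnni2 start to 60.9% in the Tnni1 intron. Over all shared regions the median was 48.1%, with quartiles of 45.0 and 51.9%. The Tnnt1 region had 59.3% and the Tnni1 start region 58.3%, and the Tnnt2 and Tnnc1 regions had 53.4 and 53.2%. Of the 9 regions, 5 lay above the upper quartile and 1, in the Tnni2-Tnnt3 locus, lay under the lower quartile.

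Most other genes of the thin filament also had a peak nearby in at least 1 library. Of 15 actin, tropomyosin, nebulin, tropomodulin and leiomodin genes, 9 had a peak within 50 kb in S1 (60%), 10 in S4 (66.7%) and 8 in both (53.3%). Within 100 kb, 12 of these genes had a peak in both (80%), beside 7 of 8 troponin genes (87.5%) and 30.1% of all protein-coding genes. The highest scores were at Actc1, cardiac actin, with 1640 in S1 and 3100 in S4, and at Tpm1, the main cardiac tropomyosin, with 603 and 3100. Peaks covered 73.5% of the Actc1 body in S1 and 97.4% in S4, and 15.9 and 44.9% of the Tpm1 body. The value of 3100 is the highest in either list, reached by 9 peaks of S1 and 13 of S4, so scores at it may not be ordered among themselves. Both S4 peaks stood above the highest troponin peak.

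Other members of this list had lower scores. Lmod2, a cardiac leiomodin, reached 469 in S1 and 720 in S4, and Tmod1, the cardiac tropomodulin that caps the filament, reached 216 and 494. Acta1, Tpm3, Tmod2 and Lmod3 had no peak in either library within 50 kb. Tpm4 and Tmod4 had a peak in S4 only and Lmod1 in S1 only.

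**Figure D5:**
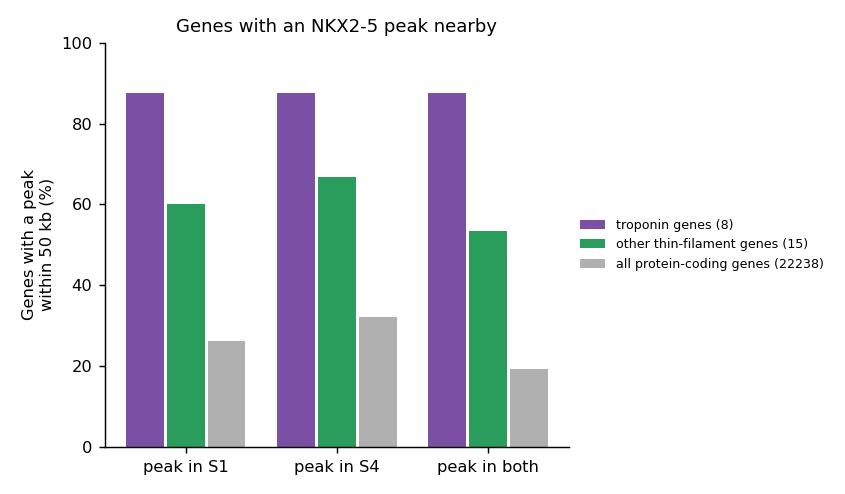
Share of genes with a peak midpoint within 50 kb of the gene body (y axis, %) in S1, in S4 and in both, for the 8 troponin genes, 15 other thin-filament genes and all 22238 protein-coding genes. The troponin bars stand at 87.5% in each case, the thin-filament bars between 53.3 and 66.7%, and the bars for all genes between 19.2 and 32.1%.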

How the data were processed

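NKX2-5 ChIP-seq libraries S1 and S4 of E11.5 hearts were analysed, and the Input library was not. Per the study's methods and the submitters' processing notes, the authors used CASAVA 1.4, aligned reads to mm9 with Bowtie and called peaks with MACS, once per library without pooling. The settings, and whether the Input served as control, are not given in the sources used here. The deposited score is 10 times the negative log10 of the caller's p-value, relative to its own library, and the deposited coordinates are printed here counted from 1. A library with more reads can give more peaks and higher scores, and read depth is unknown.

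The member genes, the gene list and the motifs were chosen with earlier results of these data known. The genes named are all members, with every shared region and the highest-scoring peak of each library per locus, and other genes that hold or lie nearest to these. Peaks without a partner are given by counts, range and examples chosen after their values were seen. Peaks were shared at an overlap of at least 1 bp, and pairs with a peak in common were merged. Counts of shared peaks were the same with bedtools. Percentiles are ranks within a list. Promoter positions lie within 1 kb of a GENCODE M1 start. RefSeq promoters (GRCm38.p6) were found for 6 of 8 genes as 8 entries, each matched exactly once to NCBIM37 to place starts, and the other starts are from GENCODE M1. Motifs were exact matches on both strands. No test between groups was possible, so shares carry Clopper-Pearson intervals at 95% for counting error only. The counting of overlaps and motifs was tested on simulated data. The alternatives were other windows, score and overlap limits, merging, single libraries and motif windows, and, chosen after seeing the data, the short Tnnc1 model, an overlap of at least 100 bp and other windows for the thin-filament genes. Python 3.11.15, numpy 2.4.6, pandas 2.3.3, scipy 1.17.1 and matplotlib 3.10.9 were used.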

Additional observations from a re-analysis of the deposited data

How the results depend on the processing

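Of 68 alternative values, 51 moved by less than the spread between the libraries or, for shares, the counting interval, or by at most 1.5 times for a count, and 17 moved further. A minimum score of 200 brought the mean number of troponin peaks from 16 to 9.5, the share of S4 peaks found in S1 from 47.4 to 21.4% (50.3% of all such S4 peaks) and the shared regions from 9 to 3. Where the overlap had to span 50% of each peak, the share of S1 peaks found in S4 was 38.5% in place of 76.9% (52.3% of all S1 peaks), with 5 shared regions. Midpoints within 150 bp left 30.8% of S1 peaks, 21.1% of S4 peaks and 4 regions (45.2 and 36.7% of all peaks). Within 25 bp of the midpoint, shorter than most stretches, the share of troponin regions, with that of all shared regions in brackets, was 11.1% for AAGTG (21.7), 0% for TNAAGTG (9.15), 22.2% for TGACA (24.6), 0% for GTGNTGACA (2.28), 11.1% for AGATAA (4.44), 0% for GGTGTGA (1.10) and 0% for CATTCC (4.08). Within 100 bp it was 0% for GGTGTGA (4.60) and 11.1% for CATTCC (14.8). The stricter limits keep fewer peaks or bases by construction.

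Windows of 10, 25 and 100 kb gave a mean of 13, 15.5 and 19 troponin peaks, and 6, 6 and 7 of 8 troponin genes with a peak in both libraries. Of the 15 other thin-filament genes 8, 8 and 12 had one, windows chosen after seeing the data, the last at 1.5 times the 8 within 50 kb. Of all protein-coding genes 9.15, 13.0 and 30.1% did. With each library alone the number of troponin peaks was 13 to 19 and the number of genes with a peak stayed at 7. At a minimum score of 200 in both lists, 5 of 8 troponin genes had a peak in both. The share of all genes at that limit is not given here. The other 2 alternatives chosen after seeing the data, the short Tnnc1 model and an overlap of at least 100 bp, moved no value past these limits. No paired analysis was possible because the peak lists belong to 1 group only. Without read numbers, peaks under the score limit of a list cannot be told from absent ones.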
